A study of Mus musculus with 3 samples.

Results

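Guidance cues and their receptors were followed across the cell classes of the mouse skin epithelium at the stage when hair placodes form. Members were the genes present in both deposited count tables whose symbols belong to the semaphorin, plexin, neuropilin, Slit, Robo, netrin, Unc5, ephrin and Eph families and which held 50 or more unique molecular identifiers (UMIs, each marking 1 captured RNA molecule) over all cells. Of 14656 genes in both tables, 55 matched these symbols and 50 were members. Plxna4, Ntn5, Unc5a, Epha3 and Sema6b fell below the minimum, and 7 further symbols were in 1 table only. The members were 16 semaphorins, 7 plexins, 2 neuropilins, 2 Slits, 2 Robos, 2 netrins, 2 Unc5 receptors, 5 A ephrins, 3 B ephrins, 4 EphA and 4 EphB receptors, and Unc50, which shares the letters of the Unc5 symbols but is not a guidance gene. The samples were dorsal skin epithelium of wild-type C57BL/6JOlaHsd embryos at E14.5, with the epithelial sheets of 3 to 4 littermates pooled in each. There was 1 library of total live epithelium and there were 2 placode-enriched libraries, sorted for MAdCAM-1, an adhesion molecule on placode cells, which the series design calls biological replicates.

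Guidance cues were named for steering growing axons, and epithelia use them for adhesion, repulsion and boundary formation. Secreted class 3 semaphorins bind neuropilins, which signal through plexins, whereas most membrane-bound semaphorins bind plexins directly. Slits bind Robo receptors, netrins bind Unc5 and Dcc-type receptors, and the membrane-held ephrins bind Eph receptor tyrosine kinases on the neighbouring cell, so that both cells can be signalled to. The hair placode is a local thickening of the epidermis whose cells pack together and move before they grow down.

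The libraries held 1590, 1507 and 1567 cells after removal of doublets, in the order total epithelium, placode-enriched 1 and placode-enriched 2, which is kept for every set of 3 values given here. The median cell held 21975, 21642 and 23419 UMIs. The placode-enriched libraries shared 2 cell barcodes, and each shared 1 with the total epithelium library. Cells were clustered on other genes and named from markers. Placode-like cells (94, 681 and 740) carried the placode markers Dkk4, Edar, Shh and Fgf20, with the summed level of 9 placode markers at 856 to 1004 CPM (the gene's UMIs in a class of a library, scaled to a total of 1000000) against 90.6 to 114 in basal-like cells, although Prdm1, another of these markers, was close to 0 in every class. Basal-like cells (1130, 567 and 528) carried Krt5, Krt14 and Trp63, and suprabasal-like cells (309, 49 and 55) Krt1 and Krt10. Trp63 did not separate basal-like from placode-like cells, at 253 to 288 CPM in basal-like and 268 to 327 CPM in placode-like clusters. A further class (26, 169 and 199 cells, 1 cluster, cluster 9) held the most Sostdc1, a secreted Wnt and Bmp antagonist known from the placode margin. Sostdc1 was at 1160, 1122 and 949 CPM there, against 236 to 330 in placode-like and 513, 816 and 709 in basal-like cells. Sostdc1 alone did not set the class apart, since basal-like clusters 3 and 7 reached 79.5% and 72.2% of its level. Of the 7 basal markers 5 reached the level required, where a basal-like name needed 6. The class is called Sostdc1-high after its leading gene, since 1 gene does not name a cell type. Its sum in the total epithelium library was thin, and a gene with no UMI there could still stand at 8.20 CPM. The total epithelium library's basal-like cells came mostly from clusters 0, 1 and 4 and those of the placode-enriched libraries from clusters 3 and 7, which had passed the MAdCAM-1 gate.

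By mean level, 21 of the 50 members were highest in Sostdc1-high cells, 15 in placode-like, 8 in basal-like and 6 in suprabasal-like cells. Over all 6382 genes with the same minimum of UMIs that were not used to cluster, 33.0% were highest in Sostdc1-high, 17.2% in placode-like, 16% in basal-like and 33.8% in suprabasal-like cells, against 42%, 30%, 16% and 12% of the members. The 3 libraries of the highest class lay above all 3 of the next class for 7 members highest in Sostdc1-high, 4 in placode-like, 3 in basal-like and 2 in suprabasal-like cells, where 6.06%, 2.15%, 2.99% and 10.5% of all genes did so. The map of all members by class and library shows Nrp2, both Robos and Sema3a and Sema3d high together in placode-like and Sostdc1-high cells.

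**Figure D1:**
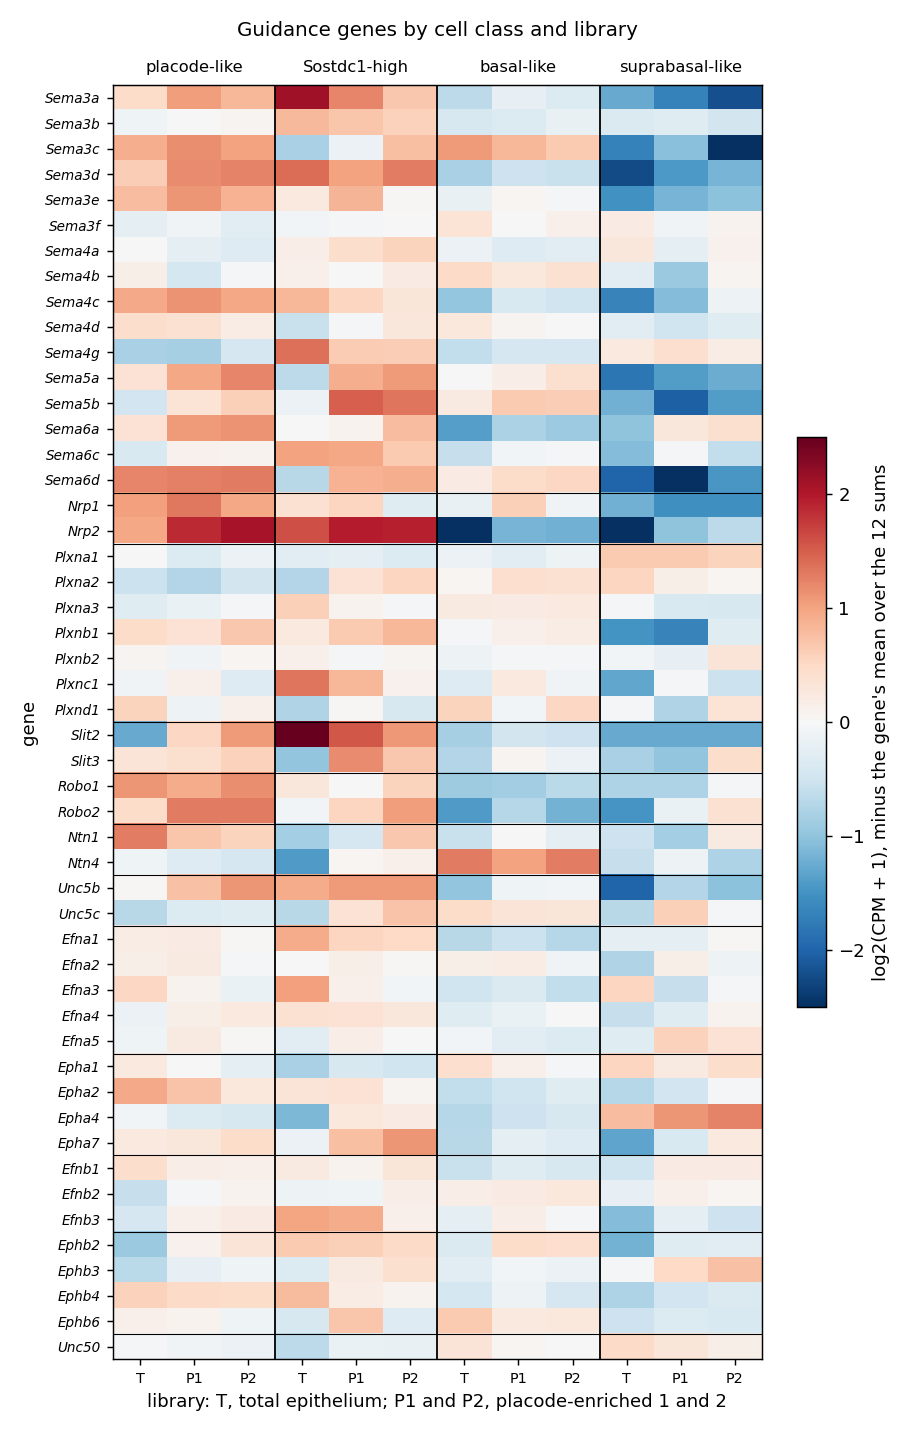
Level of each of the 50 members (rows, grouped by family with lines between families) in the 12 sums of 3 libraries and 4 classes (columns), as log2(CPM + 1) minus the gene's mean over the 12 sums, so that red is above and blue below that mean. Nrp2 is the row with the strongest change from placode-like and Sostdc1-high to basal-like cells, and Ntn4 is reddest in the basal-like sums.

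Placode-like cells were compared with basal-like cells to ask how guidance genes differ between the placode and the epidermis around it. Both neuropilins, both Robos, Slit2, Ntn1, Unc5b and 7 of 16 semaphorins were higher in placode-like cells, and Ntn4, Plxna2, Sema4b, Sema3f and Efnb2 were lower. Of 48 members that passed the count filter, 22 were higher (45.8%, where 15.6% of all 5805 genes tested were higher) and 5 were lower (10.4%, where 14.3% of all genes were lower). The median log2 fold change of the 48 was 0.27, against 0.0042 over all genes tested. Plxnd1 and Unc5c did not pass the filter. The count of lower members was 2 without the library as a block and 3 without placode-enriched library 1 or 2.

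Among the receptors, Nrp2 (GRCm38 chromosome 1, 62703285 to 62818695, plus strand), the neuropilin that binds Sema3f, Sema3b and Sema3c, lay at 31.2, 58.9 and 67.8 CPM in placode-like cells and at 1.05, 6.40 and 6.16 CPM in basal-like cells. The groups did not overlap, and the total epithelium library was lowest in both. The log2 fold change was 3.57 ± 0.21 (SE, adjusted p = 9.02e-10). This difference itself differed with the sort, at 4.89 in the total epithelium library and 3.32 in the placode-enriched libraries (adjusted p of the interaction 0.00407). Nrp1, which binds Sema3a, stood much lower, at 4.88, 6.15 and 4.59 CPM against 1.52, 3.37 and 1.72, a log2 fold change of 1.20 ± 0.22 (adjusted p = 0.000391). Its call was lost with coarser clusters (resolution 0.5), where the log2 fold change was 0.85 (adjusted p = 0.0879; 0.85 was the lowest of the settings tried).

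Robo1 (chromosome 16, 72308306 to 73046095, plus strand), a receptor for Slits, reached 39.5, 35.0 and 41.4 CPM in placode-like cells against 9.18, 9.37 and 10.9 in basal-like cells. Every placode-like value was above every basal-like one, and the log2 fold change was 1.95 ± 0.10 (adjusted p = 1.69e-10). Robo2 (chromosome 16, 73891839 to 74411825, minus strand), the other Slit receptor, was at 8.29, 15.5 and 15.7 CPM against 1.52, 3.10 and 1.99 (log2 fold change 2.52 ± 0.20, adjusted p = 2.47e-08). Unc5b, a netrin receptor, was at 6.83, 11.8 and 15.4 CPM against 2.88, 6.13 and 6.29, with a log2 fold change of 1.14 ± 0.14 (adjusted p = 7.78e-06). Within each library it was higher in the placode-like cells. Of the 6 plexins tested, Plxnb1, a receptor for Sema4d, rose by a log2 fold change of 0.38 ± 0.12, and Plxna2, which binds Sema6a, fell by 1.01 on the log2 scale (SE 0.17, adjusted p = 0.000137). The other 4 plexins did not pass the test.

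Among the ligands, Sema6a, a transmembrane semaphorin, was at 35.1, 58.0 and 60.1 CPM in placode-like cells and 9.88, 15.4 and 14.0 in basal-like cells (log2 fold change 1.93 ± 0.13, adjusted p = 3.55e-09). The secreted Sema3d (chromosome 5, 12383385 to 12588948, plus strand) was at 33.2, 49.7 and 51.6 CPM against 11.8, 14.6 and 14.2 (1.74 ± 0.11, adjusted p = 1.23e-09), and the groups did not overlap for either gene. Sema4c, which binds Plxnb2, was at 21.0, 23.8 and 21.3 CPM against 4.82, 7.68 and 7.09, a log2 fold change of 1.69 ± 0.15 (adjusted p = 1.26e-07). Sema3a, the Nrp1 ligand that repels sensory axons, was at 22.9, 34.5 and 29.6 CPM against 10.0, 13.9 and 12.7 (1.31 ± 0.16, adjusted p = 3.99e-06). Sema3e, Sema5a and Sema6d rose less, with log2 fold changes of 1.13, 0.78 and 0.86. Sema4b and Sema3f fell by 0.56 and 0.31 on the log2 scale, so the semaphorins did not share a direction.

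The netrins went in opposite directions. Ntn4 (chromosome 10, 93640681 to 93747207, plus strand), a laminin-binding netrin of basement membranes, was at 1.46, 1.14 and 1.0 CPM in placode-like cells and at 5.52, 4.31 and 5.43 CPM in basal-like cells. The groups did not overlap, and the log2 fold change was -2.17 ± 0.24 (adjusted p = 1.92e-06). Ntn1, the netrin that binds Unc5b, was scarce, at 3.41, 1.94 and 1.65 CPM against 0.233, 0.809 and 0.530 (log2 fold change 1.81 ± 0.46, adjusted p = 0.00601). Slit2 (chromosome 5, 47983138 to 48307733, plus strand), the Robo ligand, was also scarce, with no UMI in the total epithelium library's placode-like cells, which allows up to 1.46 CPM. It was at 2.41 and 4.00 CPM in those of the placode-enriched libraries, against 0.350, 0.741 and 0.662 in basal-like cells. The log2 fold change was 2.13 ± 0.46 (adjusted p = 0.00218), and the total epithelium library did not show it. Without placode-enriched library 2 the Slit2 call was lost (1.63, adjusted p = 0.145).

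In the ephrin and Eph families the changes were smaller. Epha2, an ephrin-A receptor of epithelia, was at 13.2, 11.1 and 7.83 CPM in placode-like and 3.85, 4.25 and 5.03 in basal-like cells, without overlap (log2 fold change 1.14 ± 0.18, adjusted p = 0.000107). Epha7 and the ephrin-B receptor Ephb4 rose by log2 fold changes of 0.84 and 0.84. Of the A ephrins, Efna1, Efna3 and Efna4 rose by 0.79, 0.64 and 0.24, and Efna2 and Efna5 did not pass the test. Among the B ephrins Efnb1 rose by 0.60 and Efnb2 fell by 0.30 on the log2 scale. Several of these smaller changes lost their call when placode-enriched library 1 or 2 was left out in turn. For Epha7 the log2 fold change was then 0.98 and 0.81 (adjusted p = 0.138 and 0.164), for Efna4 0.21 and 0.25 (0.329 and 0.164), for Efnb2 -0.35 and -0.42 (0.185 and 0.0903), and for the plexin Plxnb1 0.47 and 0.34 (0.106 and 0.199). Sema4b was lost without library 1 (-0.44, adjusted p = 0.0728) and Sema3f without library 2 (-0.27, adjusted p = 0.282).

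Efna1, a membrane-anchored ligand of EphA receptors, took a different level in each class. It was at 90.2, 69.0 and 67.2 CPM in Sostdc1-high cells, 53.6, 54.8 and 47.99 in placode-like, 40.3, 39.7 and 47.88 in suprabasal-like and 28.7, 32.3 and 28.5 in basal-like cells. No class overlapped the next, although the highest suprabasal-like and the lowest placode-like value nearly met. Against basal-like cells the log2 fold change of Efna1 was 1.21 ± 0.10 in Sostdc1-high cells (adjusted p = 8.27e-08) and 0.79 ± 0.08 in placode-like cells (adjusted p = 9.38e-07). Plxnb2, the receptor for Sema4c and Sema4g, varied least of the members, with class means from 30.9 to 33.9 CPM. With called doublets kept, Efna1 was higher in placode-like than in Sostdc1-high cells, by 0.28 on the log2 scale (adjusted p = 0.129). Ephb4 lies across the gene Zan and Epha1 across Zyx on the other strand, and the strand setting of the counting is not given in the sources used here.

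**Figure D2:**
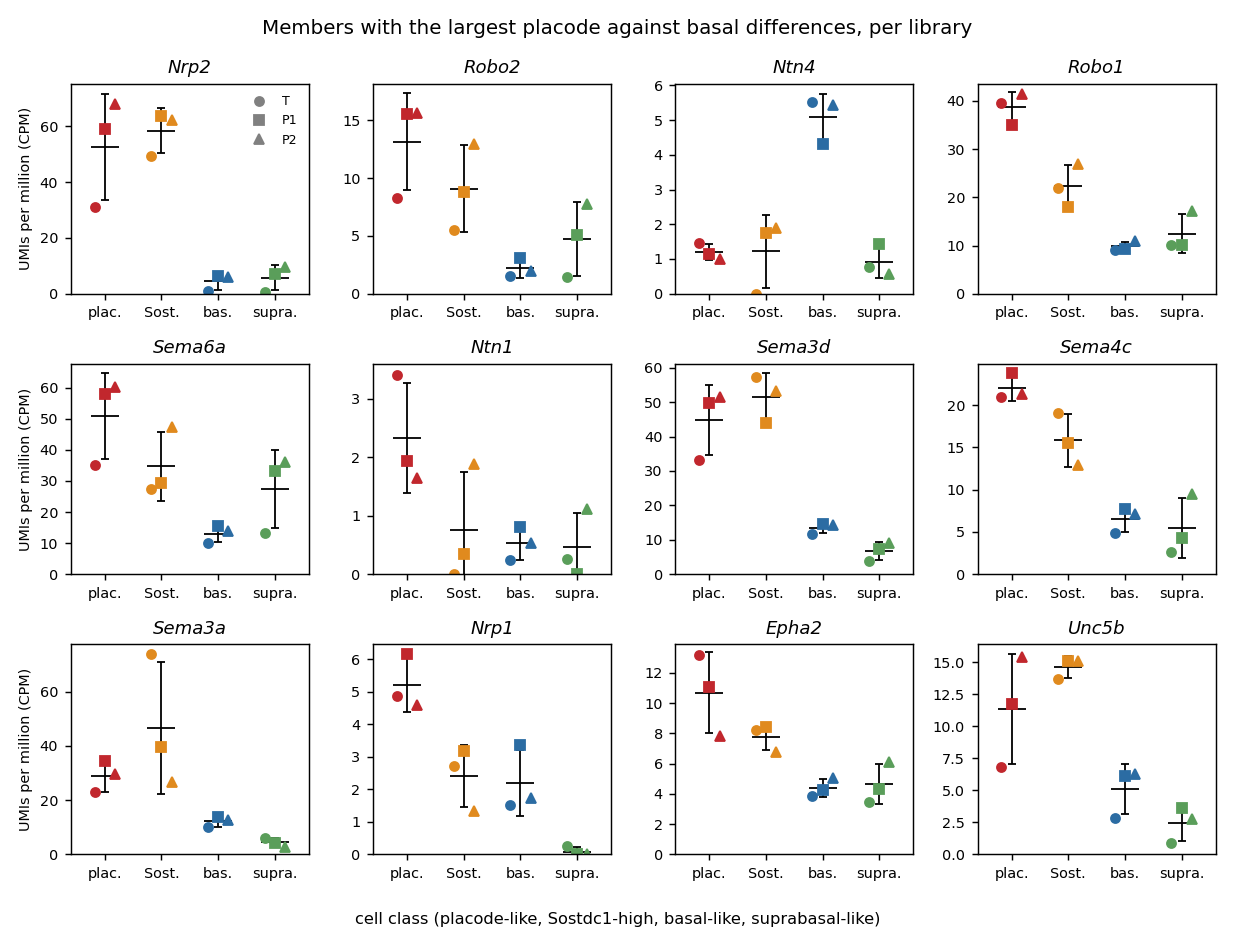
CPM (y axis, from 0) of the 12 members with the largest changes between placode-like and basal-like cells, in each class (x axis) and library (circle T, total epithelium; square P1 and triangle P2, placode-enriched 1 and 2); black bars are the mean ± SD of the 3 libraries. Nrp2 and Robo1 separate placode-like from basal-like cells in all 3 libraries, while Ntn4 lies above 4 CPM in basal-like cells and under 2 CPM elsewhere.

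Markers of other cell types moved with the placode too. Of 8 fibroblast markers 6 were in both tables, and their summed level was 1143 to 1724 CPM in placode-like, 1006 to 1149 in Sostdc1-high, 700 to 831 in basal-like and 150 to 303 in suprabasal-like cells. Nearly all of it was Dcn and Postn, while Col1a1, a defining fibroblast gene, was at 0.4 CPM or less in every sum. The immune markers, 2 of 6 in both tables, summed to 86.3 to 145 CPM in placode-like and Sostdc1-high cells and 13.7 to 44.1 in basal-like cells, nearly all Cd74. The Merkel cell markers, 2 of 5 in both tables (Krt8 and Krt18), summed to 34.8 to 38.3 CPM in placode-like and 4.55 to 12.1 in basal-like cells. Melanoblast markers summed to at most 13.7 CPM in any of these classes. The part of these cell types in the differences was not tested.

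Promoters of members that were higher in placode-like cells were searched for the core motif of TCF/LEF factors, through which Wnt signalling acts, since Wnt is a placode signal. The search covered the 250 bases before each RefSeq gene start (build GRCm38.p6), both strands, for CTTTG followed by A or T at each of the next 2 bases; matches on one strand cannot overlap each other. A match was found in 6 of 27 promoters (22.2%) of the 20 higher members with an entry, in 6 of 59 promoters of all members (10.2%) and in 14.8% of 32851 promoters of all genes. The 6 genes were Nrp2, Sema3d, Epha2, Sema3e, Sema6d and Efna4. The Sema6d match precedes an internal start, inside the annotated span of the gene, and the entry before the first base of that span has none. Promoters of Nrp2, Sema3d and Epha2, which have a match, and of Robo1, which has none, are given as examples, 5′ to 3′ on the plus strand. Each has a single start in the table. So do Sema3a and Nrp1, which changed more than Epha2, have no match and are not printed. The examples therefore do not show the share of higher members with a match. Capitals mark the match, and the Nrp2 promoter stops where its annotated exon begins. The Robo1 entry of the table lies inside the gene span given above, so it precedes an internal start, and the bases before the first base of that span were not searched. The printed stretches span chr1:62703067-62703284, chr5:12382916-12383165, chr4:141300971-141301220 and chr16:72662899-72663148, in the same order.
Nrp2: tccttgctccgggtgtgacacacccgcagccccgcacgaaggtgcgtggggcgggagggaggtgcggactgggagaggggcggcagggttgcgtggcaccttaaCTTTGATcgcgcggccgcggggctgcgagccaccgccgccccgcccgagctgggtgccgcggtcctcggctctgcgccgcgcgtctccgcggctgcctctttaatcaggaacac
Sema3d: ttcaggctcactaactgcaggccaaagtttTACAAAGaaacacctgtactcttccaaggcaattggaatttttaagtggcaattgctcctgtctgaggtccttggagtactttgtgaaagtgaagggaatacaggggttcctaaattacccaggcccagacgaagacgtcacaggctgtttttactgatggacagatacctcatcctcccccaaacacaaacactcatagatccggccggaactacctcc
Epha2: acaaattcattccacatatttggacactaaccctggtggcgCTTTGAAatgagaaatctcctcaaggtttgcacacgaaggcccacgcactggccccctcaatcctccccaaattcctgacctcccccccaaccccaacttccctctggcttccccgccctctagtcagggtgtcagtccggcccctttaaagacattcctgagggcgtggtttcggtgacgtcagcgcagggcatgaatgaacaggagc
Robo1: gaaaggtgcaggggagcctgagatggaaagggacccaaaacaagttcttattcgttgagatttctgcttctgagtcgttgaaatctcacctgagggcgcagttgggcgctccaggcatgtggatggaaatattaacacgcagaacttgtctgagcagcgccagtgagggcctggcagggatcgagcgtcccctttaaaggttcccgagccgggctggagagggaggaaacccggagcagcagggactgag
The motif of Sema3d is on the minus strand. A match describes letters only. The same promoters were searched on both strands for 5 forms of the NF-kB motif, since NF-kB acts downstream of Edar in the placode. A form was found in 0 of the 27 promoters of higher members and 0 of the 59 of all members, and in 0.390% of all promoters.

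Sostdc1-high cells also held more Nrp2, Robo1, Robo2, Sema3a, Sema3d and Sema6a than basal-like cells, together with Sema3b, Sema4g and both Slits. Of 48 members tested, 24 were higher (50%, where 14.9% of all genes were higher) and 3 were lower, namely Ntn4, Epha1 and Unc50 (6.25%, where 14.2% of all genes were lower). The median log2 fold change was 0.58, against 0.021 over all genes. The count of higher members was 15 without placode-enriched library 1, 13 without library 2, 13 with called doublets kept and 10 with cells thinned to 5000 UMIs. The count of lower members was 1 without placode-enriched library 1. With called doublets kept, where the Sostdc1-high class held other cells, the log2 fold change of Robo1 was -0.0078 (adjusted p = 0.999, against 1.15 in the main analysis), that of Sema4g was 0.19 and not called, and those of Efna4 and Sema6c changed sign; Robo1 was also not called with thinned cells.

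Nrp2 was at 49.2, 63.7 and 62.3 CPM in Sostdc1-high cells, which overlaps the placode-like range, and its log2 fold change over basal-like cells was 3.54 ± 0.25 (adjusted p = 8.32e-09). Robo2 was at 5.47, 8.80 and 12.9 CPM (2.0 ± 0.29, adjusted p = 4.43e-05), the first value resting on 2 UMIs. Sema3d was at 57.4, 44.0 and 53.1 CPM (1.74 ± 0.13, adjusted p = 2.45e-08), all above the basal-like libraries. Sema3a was at 73.8, 39.4 and 26.7 CPM, highest in the total epithelium library, with a log2 fold change of 1.49 ± 0.21 (adjusted p = 3.26e-05). Its difference from basal-like cells also differed with the sort, at 2.79 in the total epithelium library and 1.27 in the placode-enriched libraries (adjusted p of the interaction 0.0203).

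Slit2 was highest in Sostdc1-high cells, at 13.7, 5.98 and 4.05 CPM from 5, 17 and 15 UMIs. It lay above all basal-like values, with a log2 fold change of 2.98 ± 0.58 (adjusted p = 0.00103). No Slit2 UMI was found in the suprabasal-like cells of any library, which allows up to 0.388, 2.16 and 1.67 CPM. Sema3b, an Nrp2 ligand, was at 2.73, 2.46 and 2.16 CPM against 0.622, 0.674 and 0.861 in basal-like cells (1.59 ± 0.44, adjusted p = 0.0112), with a call lost without placode-enriched library 1 (1.44, adjusted p = 0.199) or library 2 (1.86, adjusted p = 0.120). Epha7, an ephrin-A receptor, was at 2.73, 5.98 and 7.82 CPM against 1.56, 2.49 and 2.32 (1.44 ± 0.31, adjusted p = 0.00181). It was not called without placode-enriched library 2 (1.22, adjusted p = 0.125) or with called doublets kept (0.55, adjusted p = 0.463). The 2.73 CPM of Sema3b and of Epha7 in the total epithelium library each rested on 1 UMI. Ntn4 was at 0, 1.76 and 1.89 CPM, the 0 allowing up to 8.20 CPM, and its log2 fold change was -1.54 ± 0.37 (adjusted p = 0.00420). Ntn4 lost its call without placode-enriched library 1 (-1.69, adjusted p = 0.0535) or library 2 (-1.59, adjusted p = 0.114).

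Placode-like cells were then set against Sostdc1-high cells directly. Robo1, Nrp1, Sema4c, Sema6a, Sema6d and Epha1 were higher in placode-like cells, and Sema4g, Plxna2, Sema5b, Sema4a, Ephb3 and Efna1 were higher in Sostdc1-high cells. These were 6 of 48 members in each direction (12.5% each, where in placode-like cells 7.56% of all genes stood higher and 4.94% lower), with a median log2 fold change of -0.11 against -0.016 over all genes. Without placode-enriched library 1 the counts were 0 higher and 2 lower, without library 2 they were 3 and 1, and without the library as a block 0 and 3. Without the total epithelium library 10 were higher and 8 lower.

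Robo1 was at 39.5, 35.0 and 41.4 CPM in placode-like and 21.9, 17.9 and 27.0 CPM in Sostdc1-high cells. The groups did not overlap, and the log2 fold change was 0.80 ± 0.13 (adjusted p = 0.000350), with an adjusted p of 0.0593 without placode-enriched library 1 (log2 fold change 0.72) and 0.0511 without the library block (0.79). Sema4g, a transmembrane semaphorin that binds Plxnb2, was at 3.41, 3.34 and 4.77 CPM in placode-like and 19.1, 10.9 and 10.8 CPM in Sostdc1-high cells (log2 fold change -1.47 ± 0.23, adjusted p = 0.000303). With called doublets kept, where the Sostdc1-high class held other cells, it was 0.15 (adjusted p = 0.831). Sema4a was at 26.3, 22.3 and 21.1 CPM against 30.1, 36.6 and 39.9 in Sostdc1-high cells (-0.75 ± 0.13, adjusted p = 0.000470), and its call was lost without placode-enriched library 2 (-0.60, adjusted p = 0.141). Nrp1 was at 4.88, 6.15 and 4.59 CPM against 2.73, 3.17 and 1.35 from 1, 9 and 5 UMIs (1.30 ± 0.37, adjusted p = 0.0258). For Nrp1 the log2 fold change was 1.67 without placode-enriched library 1 (adjusted p = 0.177), 1.0 without library 2 (adjusted p = 0.379) and -0.16 with called doublets kept (adjusted p = 0.840).

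Epha1, Plxna2, Ephb3 and Efna1 lost their calls in this contrast without either placode-enriched library. Without library 1 and library 2 the log2 fold change was 0.46 and 0.55 for Epha1 (adjusted p = 0.261 and 0.146), -0.95 and -1.03 for Plxna2 (0.159 and 0.153), -0.49 and -0.43 for Ephb3 (0.351 and 0.385) and -0.49 and -0.40 for Efna1 (0.121 and 0.211).

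Sema4c, Sema6a and Sema6d were modestly higher in placode-like than in Sostdc1-high cells, and Sema5b lower. Sema4c stood at 21.0, 23.8 and 21.3 against 19.1, 15.5 and 12.9 CPM (log2 fold change 0.67 ± 0.20, adjusted p = 0.0354), Sema6a at 35.1, 58.0 and 60.1 against 27.3, 29.2 and 47.5 CPM (0.61 ± 0.15, adjusted p = 0.0127). Sema6d stood at 33.7, 34.6 and 35.7 against 8.20, 26.0 and 26.7 CPM (0.51 ± 0.14, adjusted p = 0.025), and Sema5b at 1.95, 4.21 and 5.18 against 2.73, 10.6 and 9.44 CPM (-1.05 ± 0.26, adjusted p = 0.0105). Within every library the named direction held for these 4, but the total epithelium sum of Sostdc1-high cells held only 365673 UMIs. Sema5b rested on 1 UMI there, so counting error alone could turn its direction. The same holds in that library for Sema4c (21.0 against 19.1 CPM) and Sema6a (35.1 against 27.3 CPM), whose values lay close at this depth. Without placode-enriched library 1 the adjusted p was 0.343 for Sema4c (log2 fold change 0.73), 0.429 for Sema6a (0.39), 0.170 for Sema6d (0.63) and 0.336 for Sema5b (-0.85), and without library 2 it was 0.270 for Sema4c (0.60), 0.216 for Sema6d (0.62) and 0.136 for Sema5b (-1.27).

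Suprabasal-like cells, the layers above the basal one that go on to form the skin barrier, had less of most semaphorins than basal-like cells. Of 48 members, 18 were lower (37.5%, where 20.9% of all genes were lower) and 8 were higher (16.7%, where 19.7% of all genes were higher), with a median log2 fold change of -0.28 against -0.017 over all genes. Of the 16 semaphorins, 9 were lower and 3, Sema4a, Sema4g and Sema6a, were higher. The lower members also included Nrp1, Ntn4, Unc5b, Plxnb1, Plxnc1, Ephb2, Ephb6, Efnb3 and Efna2. The higher ones also included Epha4, Plxna1, Efna3, Ephb3 and Efna1. Without the total epithelium library, which held most of the suprabasal-like cells, the calls of Efna3 (log2 fold change 0.19, adjusted p = 0.516), Efna2 (-0.10, 0.762), Ephb6 (-0.83, 0.199), Sema4g (0.76, 0.0788) and Unc5b (-1.05, 0.055) were lost. Those of Efnb3, Plxnc1, Sema4a and Sema4d were lost too. Efnb3, Plxnc1 and Sema4a also lost their calls without placode-enriched library 1 (adjusted p = 0.0834, 0.0737 and 0.0530) or library 2 (0.0646, 0.0754 and 0.116). Sema4d was also lost without library 1 (adjusted p = 0.0875), and Ephb3 without library 2 (0.40, adjusted p = 0.080). With cells thinned to 5000 UMIs the counts were 7 lower and 3 higher, and without the library block 4 were higher; 12 were lower without the total epithelium library, 15 and 17 without placode-enriched libraries 1 and 2.

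Sema3c, which binds both neuropilins, was at 12.6, 10.6 and 9.27 CPM in basal-like cells and at 1.04, 2.16 and 0 in suprabasal-like cells (log2 fold change -3.47 ± 0.39, adjusted p = 9.16e-07). The 0 allows up to 1.67 CPM. Sema6d was at 16.2, 19.4 and 20.3 CPM against 2.72, 1.44 and 4.45 (-2.61 ± 0.22, adjusted p = 3.44e-08), and the groups did not overlap for either gene. Sema5a fell from 9.14, 10.5 and 12.5 CPM to 1.94, 2.88 and 3.34 (-2.05 ± 0.24, adjusted p = 1.54e-06), and Sema5b from 3.77, 5.46 and 5.30 to 0.777, 0 and 0.557 (-2.69 ± 0.43, adjusted p = 7.16e-05). Sema3e, whose receptor is Plxnd1, was at 3.77, 4.65 and 4.24 CPM against 0.906, 1.44 and 1.67 (-1.82 ± 0.34, adjusted p = 0.000289). Ntn4 was at 5.52, 4.31 and 5.43 CPM against 0.777, 1.44 and 0.557 (-2.65 ± 0.37, adjusted p = 1.41e-05), so that among the 4 classes its level stood out in basal-like cells. Nrp1 had 2 UMIs in the total epithelium library's suprabasal-like cells and 0 in those of the other libraries. In the total epithelium library its level was 0.171 times that of basal-like cells, with an exact 95% counting interval of 0.020 to 0.660, and the edgeR test gave an adjusted p of 0.000802.

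Epha4 (chromosome 1, 77367185 to 77515088, minus strand), a receptor for both A and B ephrins, rose in suprabasal-like cells. It was at 33.3, 41.8 and 46.2 CPM against 11.2, 13.0 and 14.1 in basal-like cells (log2 fold change 1.62 ± 0.13, adjusted p = 1.40e-08), and the groups did not overlap. Placode-like cells, at 18.0, 14.8 and 14.1 CPM, did not pass the test against basal-like cells (0.16, adjusted p = 0.389). Suprabasal-like Nrp2 was at 0.647, 7.21 and 9.46 CPM and Robo1 at 10.1, 10.1 and 17.3 CPM, and neither passed the test against basal-like cells. Periderm is a transient surface layer that the suprabasal-like class could hold. Its markers summed to 2182 to 2606 CPM in suprabasal-like and 512 to 780 in basal-like cells. Nearly all of the suprabasal-like sum was Sfn (2283 CPM over all libraries) and Grhl3 (186 CPM), and Sfn was also at 482 to 803 CPM in basal-like clusters. The periderm keratins Krt4, Krt6a, Krt8, Krt18 and Krt19 were at 0.28 to 3.67 CPM in suprabasal-like cells. The part of periderm cells in these differences was not tested.

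**Figure D3:**
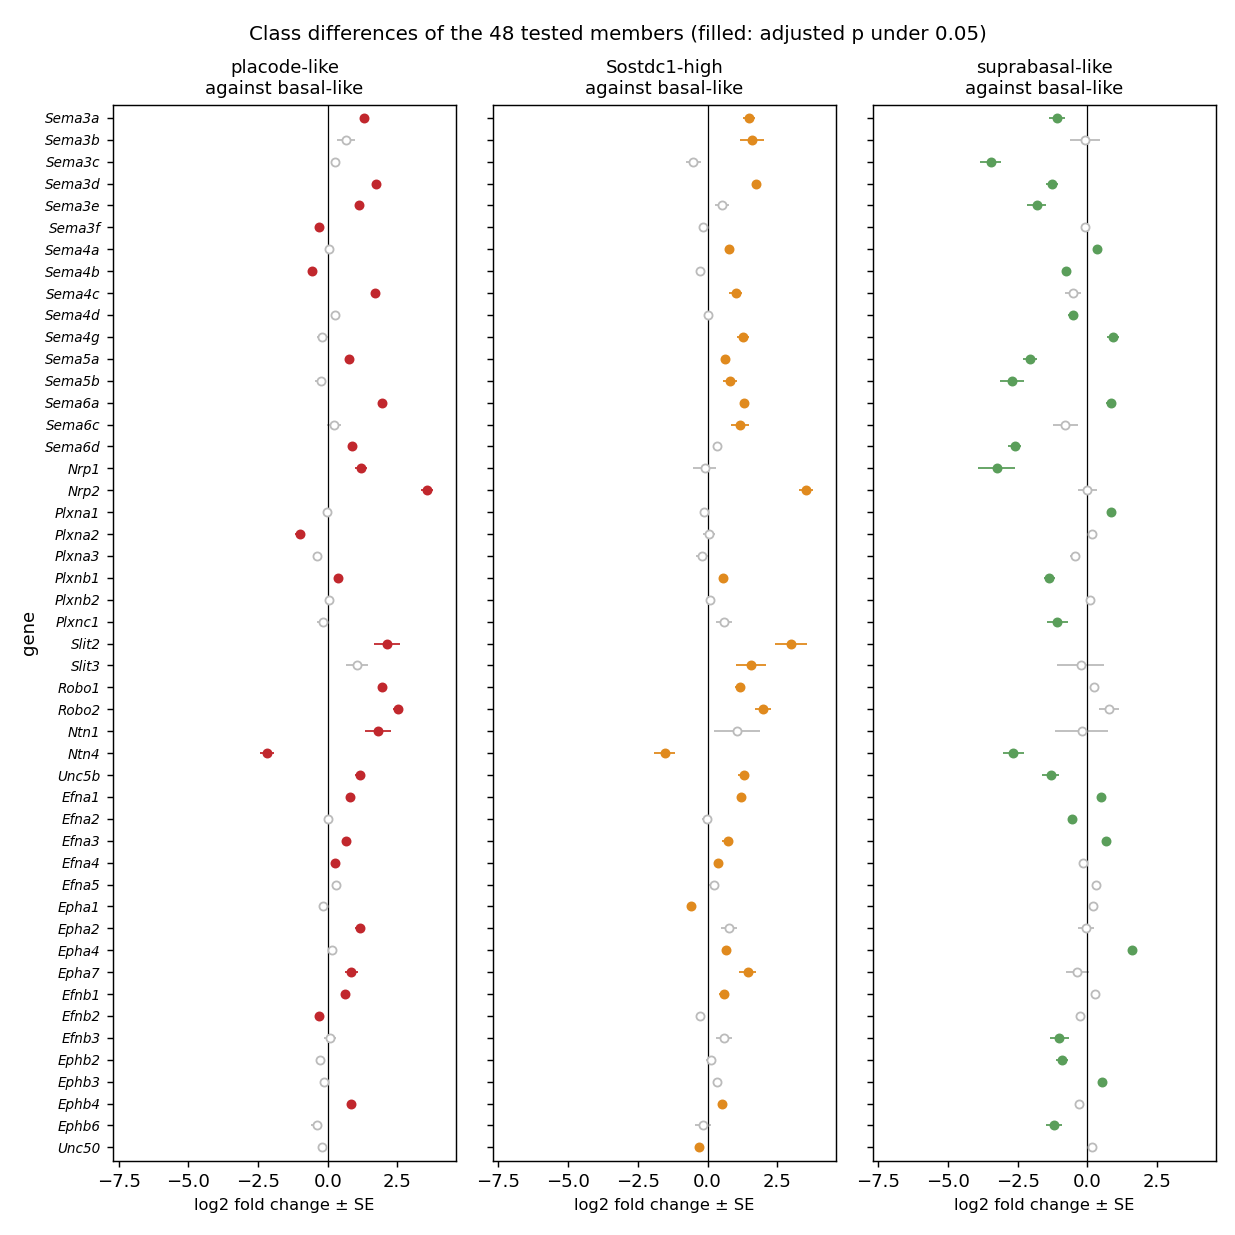
Log2 fold change ± SE (x axis) of each tested member (y axis, grouped by family) against basal-like cells, for placode-like (left), Sostdc1-high (middle) and suprabasal-like cells (right); filled points have an adjusted p under 0.05, and Slit2, with no UMI in suprabasal-like cells, is left out on the right. Semaphorin points lie mostly right of 0 in the left and middle panels and mostly left of 0 on the right.

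Ligands were paired with receptors from a list of 74 textbook pairs, of which 63 had both partners among the members. Pairs share genes, so they are not independent of each other. Counts of pairs in which both partners changed one way were not compared with those the member calls alone would give. They are therefore no result about pairing. Against basal-like cells, both partners were higher in placode-like cells for 12 pairs, of which 7 of 35 were ephrin pairs, 2 of 21 semaphorin pairs and 3 of 7 Slit or netrin pairs. These were Sema3a and Sema3d with Nrp1, Slit2 with Robo1 and Robo2, Ntn1 with Unc5b, Efna1, Efna3 and Efna4 each with Epha2 and Epha7, and Efnb1 with Ephb4. Of these partners, Epha7 and Efna4 lost their calls without placode-enriched library 1 or 2, and Slit2 without library 2. In 13 other pairs the ligand was higher and the receptor not called, and in 12 the receptor was higher and the ligand not called. In Sostdc1-high cells both partners were higher for 14 pairs, which included Slit2 and Slit3 with Robo1 and Robo2, Sema3b with Nrp2, and Efna1, Efna3, Efna4 and Efnb1 with Epha4. The Slit3 call was lost without placode-enriched library 1 (1.41, adjusted p = 0.312) and the Epha4 call without library 1 or 2 (0.56 and 0.69, adjusted p = 0.176 and 0.102), and with them these pairs. Sema3b likewise lost its call without library 1 or 2 (adjusted p = 0.199 and 0.120), and Efna4 without library 1 (0.199). Efna3 and Efnb1 were not called without library 2 (adjusted p = 0.0591 and 0.208). Only the ligand was higher in 15 other pairs of Sostdc1-high cells and only the receptor in 12, with the partner not called. No pair had both partners higher in placode-like than in Sostdc1-high cells, but few could have. The ligand was higher in 2 pairs with an uncalled receptor and in 1 with a lower receptor. The receptor was higher in 9 pairs with an uncalled ligand and in 1 with a lower ligand. In suprabasal-like cells both partners were lower for 7 pairs, among them Sema3a, Sema3c and Sema3d with Nrp1, and both were higher for Efna1 and Efna3 with Epha4.

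Other pairs went apart. Sema6a was higher and its receptor Plxna2 lower in placode-like cells than in both basal-like and Sostdc1-high cells. Plxna2 stood at 6.34, 5.41 and 6.83 CPM in placode-like cells, 10.1, 13.3 and 12.9 in basal-like cells and 5.47, 12.7 and 14.6 in Sostdc1-high cells, where the total epithelium library lay below its placode-like value. Unc5b was higher and its ligand Ntn4 lower in placode-like and Sostdc1-high cells, while both were lower in suprabasal-like cells. Nrp2 was higher in placode-like cells, whereas its ligand Sema3f was at 26.8, 29.8 and 26.3 CPM there and 40.5, 31.7 and 34.7 CPM in basal-like cells, a fall of 0.31 on the log2 scale (SE 0.09, adjusted p = 0.0142). Slit2 was highest in Sostdc1-high and Robo1 and Robo2 in placode-like cells by mean level, although the Robo2 ranges of these classes overlapped and the Slit2 difference between them was not called.

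Within the placode, members varied between the clusters that make up the placode-like class. This is a description without a test, since the clusters come from the same cells. Cluster 5 (16, 223 and 260 cells) had the highest Shh, a signal made in the placode centre, at 150 CPM over all libraries, against 59.3, 66.8 and 21.8 in clusters 8, 12 and 2. Robo2 was at 37.4, 29.0 and 31.2 CPM in cluster 5, against 4.2, 10.5 and 10.6 in cluster 2 and 3.3, 11.9 and 9.8 in cluster 8. Cluster 5 was thus the only one of the 3 above 20 CPM, in each library. Sema3e was at 37.4, 17.6 and 14.8 CPM in cluster 5 against 5.1, 5.4 and 6.8 in cluster 2, and Sema4c at 33.3, 35.9 and 28.9 against 15.3, 14.9 and 13.2. Nrp2 was highest in cluster 5 in the placode-enriched libraries, at 83.0 and 94.9 CPM, but in the total epithelium library cluster 8 was above it (52.8 against 45.7 CPM). Nrp1 stood out in cluster 2 (53, 145 and 148 cells) of the placode-enriched libraries, at 13.9 and 7.0 CPM against 3.2 and 3.0 in cluster 5. In the total epithelium library it was at 7.6 CPM in cluster 2, with no UMI among the 16 cells of cluster 5. So few cells cannot place cluster 5 below cluster 2 in that library. Every cluster 5 value of the total epithelium library given here has a wide counting error for the same reason. Plxna2 was at 5.9, 7.3 and 12.3 CPM in cluster 2 and 4.2, 3.7 and 2.4 in cluster 5.

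**Figure D4:**
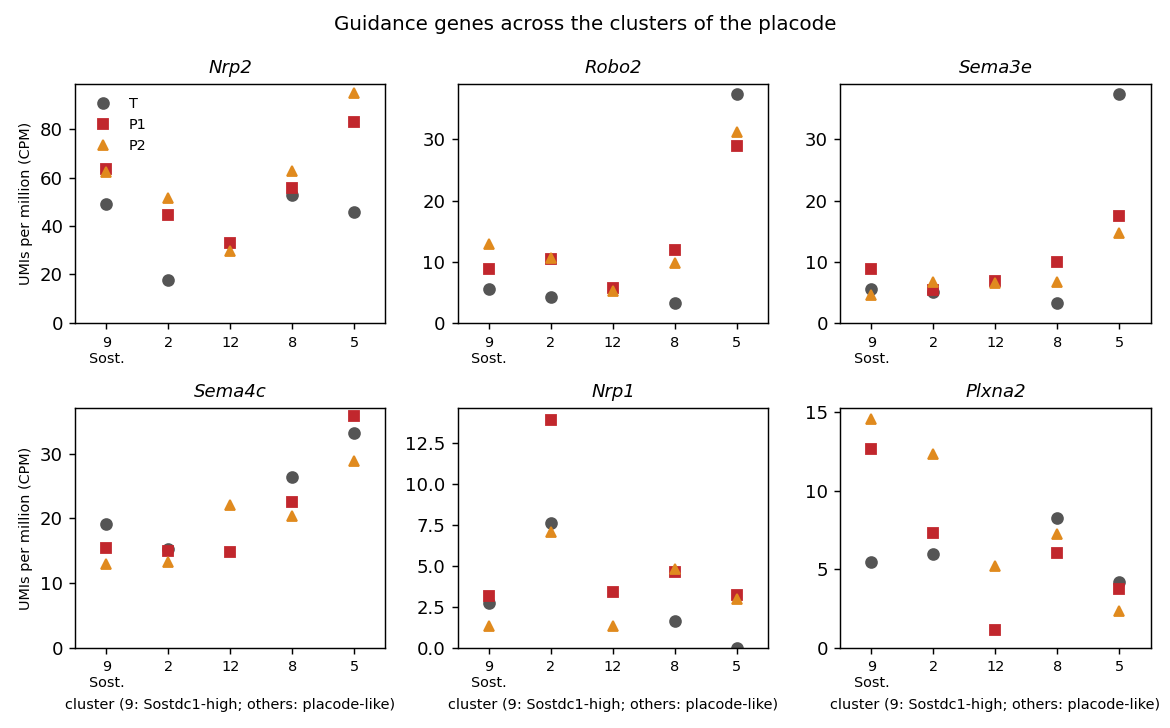
CPM (y axis, from 0) of 6 members in the Sostdc1-high cluster 9 and the placode-like clusters 2, 12, 8 and 5 (x axis), for each library (circle T, total epithelium; square P1 and triangle P2, placode-enriched 1 and 2; cluster 12 of the total epithelium library, with 2 cells, is left out). Robo2, Sema3e and Sema4c are highest in cluster 5, and Nrp1 in cluster 2.

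Co-receptors and effectors of guidance signalling, a list of 75 genes of which 62 were tested, changed in both directions. In placode-like against basal-like cells 23 of 62 were higher and 9 lower, where 15.6% of all genes were higher and 14.3% lower, with a median log2 fold change of 0.13 against 0.0042 over all genes. Among the higher ones were Mical2, an actin-oxidising enzyme of the semaphorin pathway (log2 fold change 3.41 ± 0.27), Rnd1, a small GTPase that binds plexins (2.85 ± 0.29), Dpysl3, a collapsin response mediator (2.32 ± 0.18), and Srgap1, a GTPase-activating protein that binds Robo (2.15 ± 0.19). Flrt3, which binds Unc5 receptors and Robo1, was at 120 ± 16.4 CPM (SD, n = 3) in placode-like cells (1.21 ± 0.08), and Rgma, a ligand of neogenin, fell by 0.94 on the log2 scale. Sostdc1-high cells had 20 of these 62 genes higher and 5 lower than basal-like cells, where 14.9% of all genes were higher and 14.2% lower, with Mical2 and Srgap1 again among the higher ones (3.19 and 2.35). Placode-like and Sostdc1-high cells differed in 2 of 62, Gpc4 and Pak1, both higher in placode-like cells, where 7.56% of all genes were higher and 4.94% lower. In suprabasal-like cells 14 of 62 were higher and 17 lower, shares near those of all genes (19.7% higher and 20.9% lower). Among them were L1cam, an adhesion molecule that binds neuropilin, at a log2 fold change of 4.75 ± 0.41 and Sdc2 and Itgb1 at -2.29 and -1.79.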

How the data were processed

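The authors deposited unnormalized UMI counts, as the whole numbers and, per the file headers, the gene and cell names show. Cell Ranger, Seurat and build mm10 are named per the submitters' processing notes, without versions. Libraries were made with 10x Chromium 3' v2 chemistry, per the labels' protocols. The placode-enriched libraries shared a table, and the number ending each barcode was read as the library number.

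Scrublet (scanpy 1.11.5) looked for doublets in each library (expected rate 0.05), which marked 11, 4 and 4 cells, so doublets can remain. Cells were clustered (Leiden, igraph 0.11.9, resolution 1, 20 neighbours, 30 components of 1000 variable genes) on 7306 genes, one set of an arbitrary split of the symbols, without members, markers and partner genes. A class needed 6 of 9 placode markers at 25% of the highest cluster, 4 of 8 suprabasal markers at 25%, 6 of 7 basal markers at 50% or 5 melanoblast markers at 50%, and Sostdc1-high cells 50% of the highest Sostdc1. Basal-like clusters 1, 3 and 7 also passed this Sostdc1 level but kept the basal-like name, whose rule cluster 9 did not meet. All thresholds were chosen with the clusters in view, and 9, 40 and 45 cells stayed unnamed.

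UMIs were summed per library and class. The 12 sums entered edgeR 4.0.16 (R 4.3.3) with TMM scaling, filterByExpr, the library as a block and the quasi-likelihood test, with 6 residual degrees of freedom; p-values were adjusted by Benjamini and Hochberg over 5805 genes that were not used to cluster, at 0.05. SE is the fold change over the root of F. The clusters come from other genes of the same cells, so p-values measure agreement between libraries. Classes of a library share embryos, and their deviations from the class means correlated by 0.10 to 0.63 within a library and by -0.56 to 0.20 between libraries. Deviations from a class mean cancel out over the libraries, so positive values within a library force negative ones between libraries on balance. A class by sort interaction left 3 degrees of freedom and assumes that the lone total epithelium library varies like the others. On simulated data for placode against basal cells, over 5649 genes, the fit recovered 96.9% of genes changed by 1 and 99.0% of those changed by 2 on the log2 scale, and called 0.147% of unchanged genes. The simulation gave all genes the same spread and let no class difference vary between libraries. It also did not cluster cells, so these rates check the fit and need not hold for these data. Gene positions are those of GRCm38, which is mm10.

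Named genes were those past the threshold with one sign in all libraries, at most 12 with the largest change between placode-like and basal-like cells and 8 in each other contrast, plus their pair partners; members of other calls are named with values as examples chosen after they were seen. The members and lists were chosen with earlier results of these data known. Alternatives were RLE scaling, DESeq2 1.42.0, no count filter, no block, pairwise fits, other clusterings, doublets kept, cells thinned to 5000 UMIs, Sostdc1-high cells counted as basal, and each library left out. Intervals and limits for a count of 0 (3 counts) cover counting error only.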

Additional observations from a re-analysis of the deposited data

Results flagged for a closer look

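For 5 results the class difference differed between the total epithelium library and the placode-enriched libraries by the interaction test of edgeR (adjusted over all 5805 genes, of which 76, 35 and 335 were called for placode-like, Sostdc1-high and suprabasal-like against basal-like cells). Nrp2 had a smaller difference in the placode-enriched libraries, by -1.57 on the log2 scale for placode-like cells (4.89 in the total epithelium library, 3.32 in the placode-enriched ones, adjusted p = 0.00407) and by -2.15 for Sostdc1-high cells (5.44 and 3.29, adjusted p = 0.0143). Beside this, basal-like Nrp2 was at 1.05 CPM in the total epithelium library and 6.40 and 6.16 CPM in the placode-enriched libraries, whose basal-like cells had passed the MAdCAM-1 gate; the part of the gate was not tested. Sema3a in Sostdc1-high cells differed by -1.52 (2.79 and 1.27, adjusted p = 0.0203), where the total epithelium sum held 26 cells. In suprabasal-like cells Efna3 differed by -0.91 (1.11 and 0.19, adjusted p = 0.00462) and Efna5 by 0.96 (-0.22 and 0.75, adjusted p = 3.87e-05).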

How the results depend on the processing

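Counts of called members within 1.5 times the main one are not repeated here. The 5 members lower in placode-like than basal-like cells became 2 without the replicate block, 8 in a pairwise fit, 3 at resolution 0.5, 2 with cells thinned to 5000 UMIs and 3 to 7 with a library left out. For Sostdc1-high against basal-like cells the 24 higher members became 13 with doublets kept, 10 with thinned cells and 13 to 27 with a library left out, and the 3 lower ones became 0 with thinned cells and 1 to 3 with a library left out. For placode-like against Sostdc1-high cells the 6 higher members became 3 with DESeq2, 0 without the replicate block, 2 with thinned cells and 0 to 10 with a library left out, and the 6 lower ones 3 without the block, 11 at resolution 2, 3 with doublets kept and 1 to 8 with a library left out. The suprabasal-like counts of 8 higher and 18 lower became 4 higher without the block, and 3 higher and 7 lower with thinned cells. With doublets kept, Sema4g (0.15), Nrp1 (-0.16) and Efna1 (0.28) changed sign between placode-like and Sostdc1-high cells, and Efna4 (-0.045), Robo1 (-0.0078) and Sema6c (-0.96) between Sostdc1-high and basal-like cells; none of the 6 was then past the threshold. The cause was not tested, except that thinned cells leave 4568 genes to test. At resolution 0.5 no Sostdc1-high class formed, so its contrasts have no value there. Of the 27 placode-like calls against basal-like cells, 19 to 27 kept call and direction in each alternative, and 0 changed sign. Depth limits members with few UMIs, such as Ntn1, Slit2, Slit3 and Sema3b, left Plxnd1 and Unc5c untested, and limits every value of Sostdc1-high cells in the total epithelium library.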

Other observations

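A small cluster named from 5 melanoblast markers such as Dct and Pmel, genes of pigment cell precursors, held 23 cells, 22 in the total epithelium library and 1 in placode-enriched library 1. Its counts come from 1 library and were not tested. Of the 22 cells, 20 had UMIs of Dct and Pmel and none of the fibroblast genes Col1a1, Col3a1 and Lum, while the other 2 had 86, 71 and 82 UMIs of these and none of Dct or Pmel, so the cluster held cells of more than 1 kind; this split was made after the values were seen. Nrp1 had 27 UMIs in the 22 cells, of which 20 were in the 2 cells without Dct. In the 20 cells with Dct it was at 14.7 CPM (exact 95% counting interval 5.90 to 30.2), against 4.88 CPM in placode-like and 1.52 CPM in basal-like cells of that library. Plxnc1, a receptor for Sema7a, had all of its 19 UMIs in the cells with Dct, at 39.8 CPM (24.0 to 62.2), against 3.41 and 2.76 CPM in placode-like and basal-like cells. Sema4c was at 33.5 CPM (19.2 to 54.5) in the cells with Dct, against 21.0 CPM in placode-like cells, which lies inside that interval, and 4.82 CPM in basal-like cells. Sema6a was at 60.8 CPM (40.7 to 87.3), against 35.1 and 9.88 CPM.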
